A study of Mus musculus with 14 samples.

Results

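Memory B cells are represented by 4 arrays of a set of 14, and their transcript levels were set against those of every other sorted B cell subset together. The members were the arrays labelled as memory B cell replicates. They were compared with the mean of 3 subset means, in which naive B cells (3 arrays), germinal center B cells (3 arrays) and plasma cells (4 arrays) had equal weight, and then with each of these subsets by itself. All RNA came from spleens of male C57Bl/Ka mice and was biotin labelled and hybridised to Affymetrix arrays. Every gate left out cells carrying CD11b, Ter119, Gr-1, CD3, CD4, CD5 or CD8. Memory cells were B220+ and lambda light chain+, bound the hapten NP, were high for CD38 and lacked IgM, IgD and PNA binding. They were taken 10 to 12 weeks after intraperitoneal injection of 100 µg NP-CGG, a hapten-carrier protein, precipitated in alum, when the mice were 14 to 18 weeks old. Germinal center cells were NP-binding, PNA+, low for CD38 and low for or lacking IgM, and were taken at day 14 after 100 µg from mice of 6 to 10 weeks. Plasma cells were NP-binding, syndecan-1+, low for B220 and IgM and PNA-negative, and were taken at day 7 from mice of 5 to 9 weeks, after 100 µg for 3 of the 4 arrays and an amount not stated for replicate 1. Naive cells were B220+, CD23+, IgD+, low for IgM and lambda+, from mice of 4 to 8 weeks with no immunization stated. Each subset has its own age of mouse and time after antigen, so subset, age and time cannot be told apart. The labels do not say whether replicates came from separate animals or pools, so p-values here cover the spread among these samples alone, and that spread may be technical.

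Memory B cells are the long-lived product of an earlier response to antigen. They have left the cell cycle, keep the B cell receptor on their surface, and on meeting the antigen again can become plasma cells or return to germinal centers. Naive cells are resting too but have not met antigen, germinal center cells divide and mutate their receptors, and plasma cells have given up the mature B cell program for secretion. A transcript that sets memory cells apart therefore has to differ from another resting subset and from dividing and secreting ones, which are different contrasts.

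Levels are the deposited intensities, 1 probe set per gene, the brightest of its own. Differences are log2 values, memory minus the other group, with the standard error of the linear model, and a gene is called at an adjusted p under 0.05. On each array the highest of 27 unspiked bacterial control probe sets served as background, between 10.96 and 16.1, and 52.7% to 66.9% of 18193 genes lay above it (54.0% to 66.9% on memory arrays). Where a subset lay above background on no array, the fold is a lower bound, written "at least", of memory cells over that background. The ratio of the 3' to the middle actin control, a measure of RNA length, was 4.15 to 5.33 in memory, 4.39 to 5.30 in naive, 5.47 to 6.91 in plasma and 6.11 to 17.6 in germinal center cells. For the GAPDH controls it was 11.03 to 13.02 in memory, 9.44 to 12.0 in naive, 8.23 to 10.9 in germinal center and 5.45 to 8.41 in plasma cells. In bulk RNA a lower level in each cell and fewer expressing cells cannot be told apart.

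Against the mean of the other subsets, 1927 genes (10.6% of 18193) were higher in memory cells and 2165 (11.9%) were lower (limma). Most of these calls came from the contrast with the active subsets. Of the 1927 higher genes, 1755 were also higher than in plasma cells, 1359 than in germinal center cells and 320 than in naive cells. Of the 2165 lower genes, 1786 were lower than in plasma cells, 1380 than in germinal center cells and 316 than in naive cells. Among all genes tested, memory cells were higher than naive cells for 421 (2.31%) and lower for 593 (3.26%). They were higher than germinal center cells for 1994 (11%) and lower for 2090 (11.5%), and higher than plasma cells for 2904 (16%) and lower for 3131 (17.2%). The mean could also hide opposite differences: 83 of the 1927 were lower than in at least 1 subset, and 55 of the 2165 were higher than in at least 1. Without the plasma mean in the contrast, 1136 genes were higher, of which 1014 belonged to the 1927.

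Genes that passed against all 3 subsets in the same direction were far fewer. Memory cells were higher than each other subset for 199 genes (1.09%) and lower than each for 145 (0.797%), and 174 of the 199 and 127 of the 145 had memory arrays that did not overlap any other array. Over all genes, every memory array lay above every other array for 326 (1.79%) and below for 408 (2.24%). The difference from each subset was at least 2-fold for 129 of the 199 (0.709% of all genes) and 47 of the 145 (0.258%). In the higher set the median intensity was 151.9 in memory cells against 38.2 in naive, 30.8 in germinal center and 27.5 in plasma cells, and in the lower set it was 112.3 against 232.4, 409.6 and 438.5. The subset next to memory cells was naive for 94 of the 199 and 89 of the 145, germinal center for 63 and 31, and plasma for 42 and 25. All 3 other subsets were at background on every array for 11 of the 199. For the 145 lower genes, memory cells were above background on at least 1 array in each case.

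The balance between the directions rested on scaling and on single arrays. Among 6116 bright genes the median of memory minus naive was -0.20, and 130 of the 145 lower genes were bright, against 91 of the 199 higher ones. The split was 199 higher and 145 lower as deposited, 231 and 95 after quantile normalization, and 283 and 75 when bright genes were used to centre the arrays. With the actin ratio as a covariate, an alternative added after the data were seen, it was 104 and 144. Leaving out 1 array gave 132 to 217 higher genes (132 without naive array 2) and 68 to 199 lower genes. The lower count fell to 68 without naive array 2 or 3, 87 without memory array 1 and 88 without memory array 2. The leading genes were taken among those called against each subset whose memory arrays overlap no other array. They were ranked by the smallest of their 3 differences, so that all 3 are large. Their lack of overlap follows from this choice and adds no evidence for them.

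**Figure D1:**
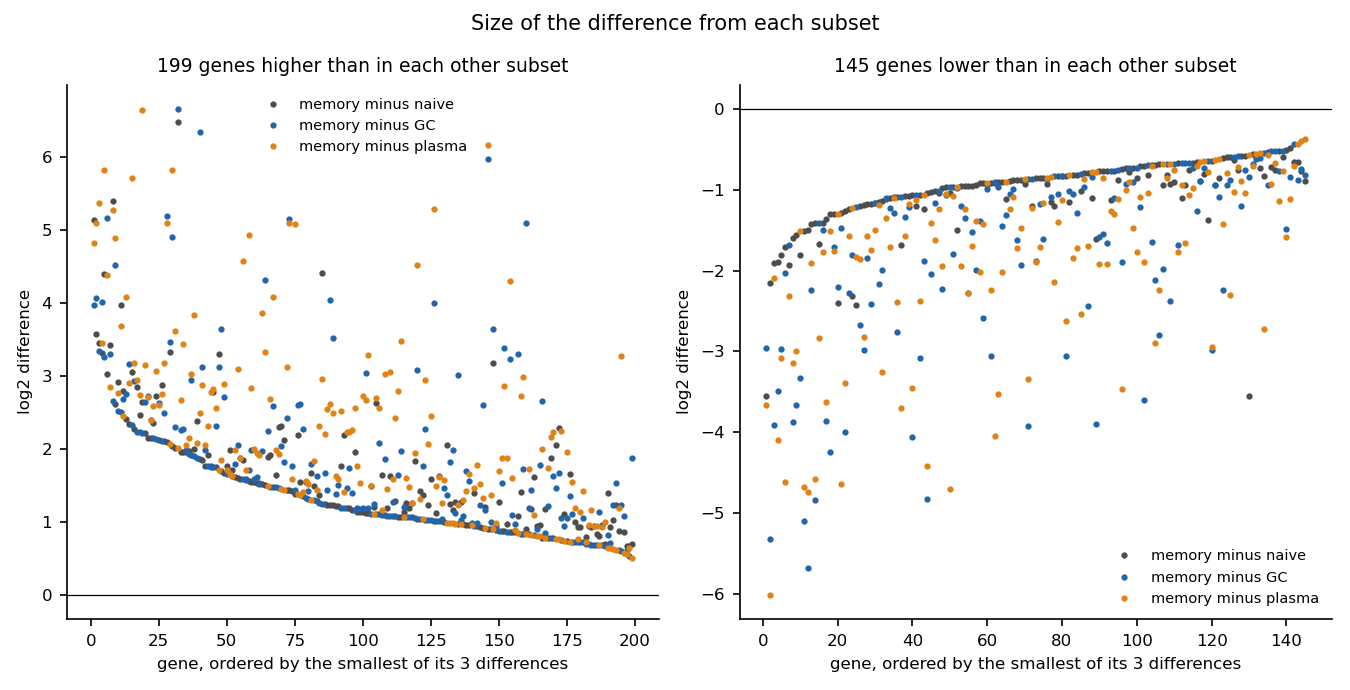
Log2 difference of memory cells from naive (grey), germinal center (blue) and plasma cells (orange) for the 199 genes higher and the 145 genes lower than in each other subset, 1 point per gene and subset, ordered by the smallest of the 3 differences. A few genes differ widely from all 3 subsets, and the lower genes mostly lie within 2-fold of the nearest subset, with 47 of 145 at least 2-fold from each.

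Promoter sequences are shown for the 3 leading higher and 2 leading lower genes, by the smallest of their 3 differences, that have a single start in the table. They are the 250 bases before the start, from RefSeq on build GRCm38.p6, in the direction of transcription, with matches to 5 motifs in capitals. The motifs were RUNX (TGTGGT), AP-1 (TGANTCA), KLF (CCACCC), E-box (CAGCTG) and ETS (GGAAGT), searched on both strands, and matches of different motifs may overlap. Sema4f (chr6:82939770-82940019, minus strand) holds none of the 5, Ahnak (chr19:8989034-8989283, plus strand) 2 KLF matches and Ackr3 (chr1:90203730-90203979, plus strand) 1 RUNX match. Of the lower genes, Ndc80 (chr17:71526858-71527107, minus strand) holds 2 ETS matches and Rapgef3 (chr15:97767667-97767916, minus strand) 1 ETS, 1 KLF and 2 E-box matches.
Sema4f: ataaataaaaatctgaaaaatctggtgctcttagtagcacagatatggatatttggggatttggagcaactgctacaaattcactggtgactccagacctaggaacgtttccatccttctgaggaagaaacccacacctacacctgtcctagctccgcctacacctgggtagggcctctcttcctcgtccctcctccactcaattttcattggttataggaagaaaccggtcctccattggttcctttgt
Ahnak: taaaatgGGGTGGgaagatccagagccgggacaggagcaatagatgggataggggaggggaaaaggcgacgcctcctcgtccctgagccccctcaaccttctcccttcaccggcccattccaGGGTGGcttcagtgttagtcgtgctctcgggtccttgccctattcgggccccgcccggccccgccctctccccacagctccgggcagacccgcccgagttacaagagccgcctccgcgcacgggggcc
Ackr3: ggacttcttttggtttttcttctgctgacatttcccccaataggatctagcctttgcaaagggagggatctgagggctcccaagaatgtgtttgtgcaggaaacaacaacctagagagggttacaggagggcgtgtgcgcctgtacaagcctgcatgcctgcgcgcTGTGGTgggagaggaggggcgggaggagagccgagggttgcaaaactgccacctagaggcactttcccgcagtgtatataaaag
Ndc80: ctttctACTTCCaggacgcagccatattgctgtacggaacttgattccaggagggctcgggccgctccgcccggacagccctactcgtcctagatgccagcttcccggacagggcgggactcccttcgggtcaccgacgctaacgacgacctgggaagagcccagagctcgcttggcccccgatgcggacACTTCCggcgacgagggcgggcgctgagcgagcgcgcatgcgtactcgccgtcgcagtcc
Rapgef3: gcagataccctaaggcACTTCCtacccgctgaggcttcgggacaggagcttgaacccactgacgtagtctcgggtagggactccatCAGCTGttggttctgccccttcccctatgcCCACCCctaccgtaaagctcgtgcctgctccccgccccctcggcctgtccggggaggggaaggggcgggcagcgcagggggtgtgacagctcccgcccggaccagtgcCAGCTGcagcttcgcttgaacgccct
CG pairs number 4, 18 and 7 in the windows of Sema4f, Ahnak and Ackr3, and 29 and 15 in those of Ndc80 and Rapgef3. The table held windows for 163 of the 199 higher genes (221 windows) and 116 of the 145 lower genes (140 windows). At least 10 CG pairs stood in 56.6% of the windows of the higher genes, 80.0% of those of the lower genes and 57.4% of those of all measured genes. An ETS match stood in 19.5%, 27.1% and 21.2%, and a KLF match in 34.8%, 33.6% and 32.8%. RUNX matches were in 15.8% of the higher and 12.1% of the lower windows (11.7% of all measured genes), AP-1 matches in 4.5% and 4.3% (5.6%) and E-box matches in 14.0% and 13.6% (12.8%). Over all 32851 windows of the table the shares were 14.1% for RUNX, 6.7% for AP-1, 28.1% for KLF, 13% for E-box and 19.7% for ETS. These are letter matches and describe no binding.

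Receptors of chemokines and metabolites were among the leading genes higher in memory cells. Ackr2, an atypical receptor that binds and removes inflammatory CC chemokines, had intensities of 594, 1135, 691 and 639 on the 4 memory arrays. They were 19.4, 14.1 and 19.5 in naive, 98.0, 94.3 and 175 in germinal center and 15.6, 20.5, 18.5 and 22.4 in plasma cells. Germinal center cells came next. The differences were 5.40 ± 0.25 from naive, 2.65 ± 0.25 from germinal center and 5.28 ± 0.23 from plasma cells (adjusted p at most 2.99e-06). Of its 2 other probe sets 1 differed in the same direction, and 0 passed all 3 contrasts. Ackr3, an atypical receptor for CXCL12, had 36.7, 174, 89.3 and 86.9 in memory cells. It had 7.36 to 8.32 in naive, 7.86 to 9.83 in germinal center and 9.20 to 12.8 in plasma cells. Memory array 1 was the lowest of the 4. Memory cells were at least 6.46-fold higher than naive and at least 5.93-fold higher than germinal center cells, and 2.85 ± 0.33 above plasma cells (adjusted p = 7.83e-06).

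Ffar2, the receptor for short chain fatty acids, had 798, 2906, 1637 and 939.6 in memory cells. It had 65.5, 41.9 and 101 in naive, 157, 157 and 118 in germinal center and 36.7, 17.5, 19.3 and 27.8 in plasma cells. The memory arrays spread widely, with array 2 highest. The differences were 4.40 ± 0.41, 3.27 ± 0.41 and 5.83 ± 0.38 from naive, germinal center and plasma cells (adjusted p at most 4.3e-05), and its other probe set passed all 3 contrasts as well. Cd300lf, an inhibitory receptor known from myeloid cells, had 415, 707, 448 and 409 in memory cells against 29.3 to 31.8 in naive, 48.6 to 126 in germinal center and 37.1 to 38.1 in plasma cells. It differed by 3.97 ± 0.26, 2.51 ± 0.26 and 3.68 ± 0.24 in the same order (adjusted p at most 7.51e-06). Of 22 measured myeloid markers, 12 were at background on every memory array, Itgam, Cd14 and Cd68 among them, and 5 were above it on all 4 (Cebpb, Spi1, Csf1r, Adgre1 and Vcam1, with memory means of 46.6, 33.7, 28.0, 26.5 and 15.2). Their summed intensity was 305.5 to 334.7 in memory cells, within the 305.9 to 512.8 of the other subsets but for its lowest value. The chemokine receptor Ccr6, which steers cells towards CCL20, had 842, 1957, 1338 and 1242 in memory cells, 659 to 723 in naive cells and 14.5 to 28.1 and 16.3 to 19.0 in germinal center and plasma cells. Memory and naive cells shared this receptor, and the step between them was 0.91 ± 0.25 (adjusted p = 0.0463). That step was lost when naive array 1, 2 or 3, any plasma array, germinal center array 2 or memory array 2, 3 or 4 was left out (adjusted p 0.0509 to 0.138).

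Ligands that B cells show to T cells formed another group. Cd80, the B7 ligand of CD28 and CTLA4, had 67.6, 61.5, 64.5 and 75.1 on the memory arrays. It had 9.09, 10.2 and 7.48 in naive, 11.7, 10.4 and 13.1 in germinal center and 10.2, 8.95, 9.87 and 10.4 in plasma cells, at background on all 10 arrays. Memory cells were at least 5.16-fold, 4.73-fold and 4.88-fold higher than these subsets (adjusted p at most 3.8e-08). Its SD over the memory arrays was small, but of 3 other probe sets 1 differed in the same direction and 0 passed. Pdcd1lg2, the PD-1 ligand PD-L2, had 133, 97.3, 143 and 61.6 in memory cells, 23.9 to 28.1 in naive, 17.9 to 24.1 in germinal center and 13.6 to 18.6 in plasma cells. It was higher by 1.96 ± 0.24, 2.26 ± 0.24 and 2.67 ± 0.22 (adjusted p at most 0.000242). Cd274, the other PD-1 ligand, rose less, with a mean of 57.5 against 32.9, 26.1 and 35.9, and its call against naive cells (0.81 ± 0.21, adjusted p = 0.0388) was lost without naive array 2 or 3, plasma array 1 or 2 or memory array 1, 2 or 3 (adjusted p 0.0516 to 0.152). Cd86, the second B7 ligand of CD28, followed another pattern. It had 516 to 701 in memory and 585 to 639.7 in germinal center cells, a difference of 0.07 ± 0.19 that did not pass, against 85.9 to 133 in naive and 12.3 to 19.4 in plasma cells. Of 29 measured genes for costimulation and MHC class II presentation 18 were higher and 3 lower than the mean of the others, and 3 higher than each (Cd80, Cd274 and Pdcd1lg2). Over all genes 10.6% were higher and 11.9% lower than the mean, and 1.09% higher than each. Cd40, the receptor for T cell help, differed from plasma cells by 6.96 ± 0.32 and from naive cells by 0.10 ± 0.34 (adjusted p = 0.94).

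Guidance proteins and their receptors, best known from axon growth, gave the gene with the largest of the smallest differences. Sema4f, a membrane-bound semaphorin, had 447, 273, 258 and 161 in memory cells. It had 7.69, 7.81 and 7.32 in naive, 16.2, 14.0 and 21.7 in germinal center and 8.42, 8.68, 9.61 and 11.2 in plasma cells. All other subsets were near or below background. Memory cells were at least 20.6-fold higher than naive and at least 19.4-fold higher than plasma cells, and 3.97 ± 0.26 above germinal center cells (adjusted p = 6.23e-08), and its other probe set passed too. Rgmb, a co-receptor for bone morphogenetic proteins that also binds PD-L2, had 103, 138, 121 and 74.8 in memory and 19.6, 10.7 and 44.3 in naive cells, and 10.99 to 14.0 and 12.0 to 17.4 in germinal center and plasma cells. Naive array 3 was the nearest of the others. The difference from naive cells was 2.34 ± 0.36 (adjusted p = 0.00127), and 4 of 5 other probe sets had the same sign while 0 passed. Of 39 measured semaphorins, plexins, ephrins and netrin signals 7 were higher and 2 lower than the mean, and 5 were higher than each (over all genes 10.6%, 11.9% and 1.09%): Sema4f, Nrp2, Plxnc1, Plxnd1 and Sema5a. Nrp2, a semaphorin co-receptor, had 38.1 to 103 in memory cells and 10.9 to 26.1 elsewhere. Plxnc1, a receptor of Sema7a, had a mean of 1183 against 518 in naive cells, the nearest subset, a call that ended when naive array 1 or 2 or memory array 2 was left out (adjusted p 0.0567 to 0.0691). Plxnd1 and Sema5a lay close to background, with memory means of 25.05 and 14.1, and the call of Plxnd1 was lost without naive array 1, 2 or 3, germinal center array 3 or memory array 2 or 4 (adjusted p 0.0674 to 0.0961). Sema5a lost its call with values floored at 16 (adjusted p = 0.845) and with all probe sets averaged (adjusted p = 0.41). Sema7a itself was shared with germinal center cells, at 1009 and 585 (0.79 ± 0.35, adjusted p = 0.136), against 100.0 in naive and 49.2 in plasma cells.

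Proteins of the cell cortex, the actin skeleton and the matrix were also among the leading genes. Ahnak, a giant scaffold protein under the plasma membrane, had 502, 339, 542 and 496 in memory cells. It had 65.1, 61.4 and 46.2 in naive, 12.7, 16.9 and 9.79 in germinal center and 28.8, 17.2, 19.8 and 24.5 in plasma cells. The differences were 3.02 ± 0.23, 5.17 ± 0.23 and 4.38 ± 0.21 (adjusted p at most 3.02e-06). Of 3 other Ahnak probe sets 1 had the same sign and 0 passed, so this call rests on the brightest one. Nid1, a basement membrane glycoprotein that links laminin and collagen, had 523, 339.6, 377 and 323 in memory cells. It had 50.6 to 83.5 in naive, 8.93 to 24.2 in germinal center and 11.3 to 15.0 in plasma cells. The difference from naive cells was 2.61 ± 0.30 (adjusted p = 0.000133), and both other probe sets passed all 3 contrasts. Asb2, the substrate subunit of a ubiquitin ligase that targets filamins, had 48.3, 271, 134 and 88.6 in memory cells and 14.8 to 29.3 on all other arrays. Sspn, a membrane protein of the dystrophin complex, had 1118, 780.3, 1917 and 898 in memory cells, 201 to 429 in plasma cells and 8.00 to 24.99 and 9.17 to 12.99 in naive and germinal center cells. It was the leading gene against the mean of the others (5.05 ± 0.30), but its step from plasma cells was 2.01 ± 0.36 (adjusted p = 0.000492).

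Of 57 measured genes of the actin skeleton 28 were higher and 4 lower than the mean, and 5 were higher than each (over all genes 10.6%, 11.9% and 1.09%). Lmna, the nuclear lamin A and C gene counted with them, had 81.8 to 181 in memory cells against 22.8 to 38.9 in plasma, 7.99 to 18.8 in naive and 8.57 to 12.2 in germinal center cells. Myo1f, an unconventional myosin, had 52.1 to 84.6 against 14.7 to 27.0 on all other arrays, and Pdlim1, an actinin-binding protein, had 344 to 658 against 123 to 214 in naive cells, the nearest subset. Marcks, which ties actin to the membrane, had a mean of 824 against 384 in naive cells, a call lost without naive array 1 or 2 or memory array 1, 2 or 4 (adjusted p 0.0571 to 0.155). Averaging all probe sets of each gene ended the calls of Lmna and Marcks (adjusted p = 0.0696 and 0.0813). Of 19 annexins, S100 proteins and Ahnak 6 were higher than the mean and 3 than each (over all genes 10.6% and 1.09%). Besides Ahnak these were the calcium-binding S100a6, at 15.0 to 52.0 against 6.61 to 11.4, and Anxa6, at 387 to 741 against 163 to 329.6 in naive cells. The S100a6 call was lost with values floored at 16 (adjusted p = 0.117), and the Anxa6 call without naive array 2 (adjusted p = 0.0663). Anxa2, by contrast, was shared with germinal center and plasma cells: its means were 455 in memory, 812 in germinal center and 280.0 in plasma cells, which did not pass against memory, and 21.4 in naive cells (4.41 ± 0.39, adjusted p = 1.27e-05). The actin-bundling Fscn1 had 1635 to 2539 in memory and 777 to 2398 in germinal center cells, which did not pass (0.37 ± 0.53), and 8.80 to 57.3 in naive cells.

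**Figure D2:**
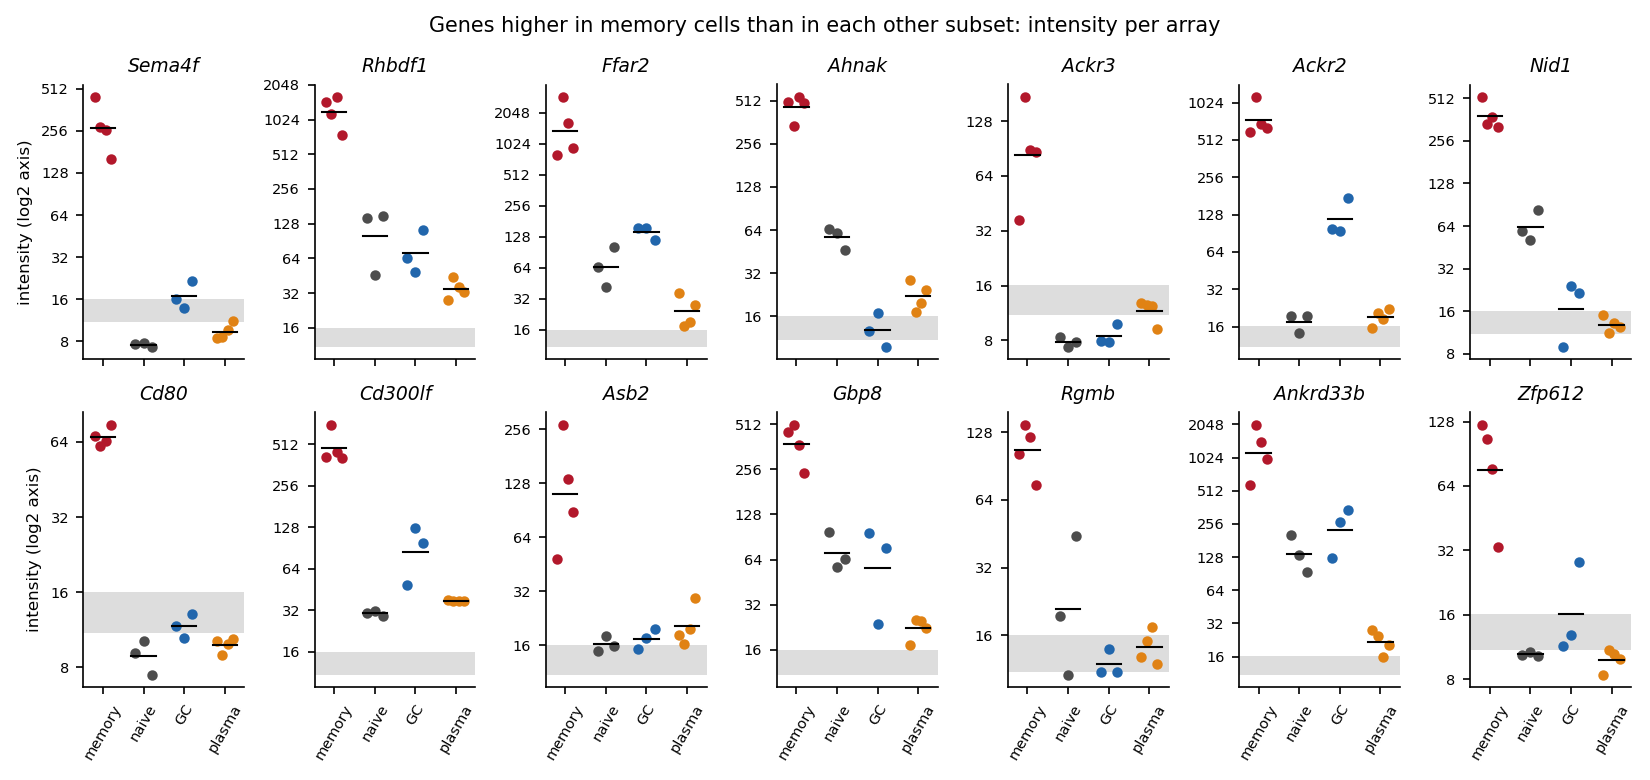
Intensity on each array (points, log2 axis) and subset mean (lines) of the 14 leading genes higher in memory cells (red, 4 arrays) than in naive (grey, 3), germinal center (blue, 3) and plasma cells (orange, 4), with the range of the array backgrounds as a grey band. All 4 memory arrays lie above all 10 others in each panel, as the choice of these genes required, and for Cd80 the 10 others lie at background.

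The remaining leading genes had varied roles. Rhbdf1, an inactive rhomboid protein that helps to traffic a membrane protease, had 1448, 1149, 1604 and 759 in memory cells. It had 46.4 to 148 in naive, 49.1 to 114 in germinal center and 28.1 to 44.6 in plasma cells, and the difference from naive cells was 3.58 ± 0.40 (adjusted p = 0.000107). Gbp8, of the guanylate-binding proteins, had 242 to 507 against 57.4 to 97.3 in naive, 23.7 to 97.0 in germinal center and 17.4 to 25.5 in plasma cells. Ankrd33b, an ankyrin repeat protein, had 575 to 2038 against 126 to 345 in germinal center cells, the nearest subset. Zfp612, a zinc finger protein, had 124, 106, 76.7 and 33.2 in memory cells and 8.41 to 28.2 elsewhere, with memory array 4 next to germinal center array 3. The 1 other probe set of Zfp612 differed from the mean of the other subsets by 0.02, against 2.68 for the brightest, and did not pass all 3 contrasts. Adding the actin ratio to the model ended the calls against germinal center cells of Asb2 (adjusted p = 0.0527), Gbp8 (0.0847), Zfp612 (0.125) and Ankrd33b (0.177), while those of the other 10 leading genes held in this fit. All 14 passed in each of the 14 fits that left out 1 array. The same covariate ended the calls of Plxnc1 (0.454), Zbtb32 (0.251), Plxnd1 (0.197), Fcgr2b (0.172), Alcam (0.168), Sema5a (0.11), Myof (0.0898), Tcf4 (0.0787) and Tlr3 (0.0624), with adjusted p in parentheses. Mapk12, the p38 gamma kinase, had 746, 641, 1083 and 461 in memory and 299, 95.6 and 172 in naive cells, a call lost without naive array 2 or 3 (adjusted p = 0.104 and 0.0638).

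Genes of receptor signalling added smaller steps. Of 28 measured genes of B cell receptor signalling 17 were higher and 1 lower than the mean, and 3 were higher than each (over all genes 10.6%, 11.9% and 1.09%). Malt1, the protease that links the antigen receptor to NF-kappa B, had 1620.0 to 3297 in memory cells against 549 to 1205 in naive, 338 to 429 in germinal center and 99.3 to 151 in plasma cells. Its difference from naive cells was 1.48 ± 0.27 (adjusted p = 0.00453). Nfatc2, a transcription factor driven by calcium, had 491 to 663 against 238 to 256 in naive cells, but averaging all its probe sets ended the call (adjusted p = 0.942). Cd81, a tetraspanin of the B cell surface, differed from plasma cells by 0.50 ± 0.13 and from naive cells by 0.70 ± 0.14, a call lost without naive array 3 (adjusted p = 0.0531). Fcgr2b, the inhibitory Fc receptor, had a mean of 2836 against 1678 in naive cells, which ended when naive array 2 or 3 or memory array 1, 2 or 3 was left out (adjusted p 0.0503 to 0.123). Il6ra, the interleukin 6 receptor, was the 1 of 32 cytokine receptors higher than each, at 76.5 to 108 in memory cells, 27.1 to 37.1 in naive, 12.0 to 17.7 in germinal center and 27.9 to 42.7 in plasma cells. Tlr3, a sensor of double-stranded RNA, was the 1 of 24 genes of Toll-like receptor signalling higher than each, at 46.8 to 154 against 20.2 to 35.6 in naive cells, and this was lost without naive array 1, 2 or 3 or memory array 2 or 3 (adjusted p 0.0502 to 0.117). Tlr7, which senses single-stranded RNA, was not above naive cells (-0.51 ± 0.16, adjusted p = 0.0864).

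Adhesion receptors were called in both directions. Of 48 measured chemotaxis and adhesion receptors 21 were higher and 6 lower than the mean, and 5 were higher (Ackr2, Ackr3, Ccr6, Cd81 and L1cam) and 2 lower (Itgb3 and Alcam) than each. Over all genes 10.6% were higher and 11.9% lower than the mean, and 1.09% higher and 0.797% lower than each. The lower calls against the mean were thus close to the share over all genes. L1cam, an adhesion molecule of neurons and leukocytes, had 82.9 to 207 in memory and 46.4 to 73.1 in naive cells, a call lost without naive array 2 or 3 or memory array 1 or 3 (adjusted p 0.0503 to 0.105). Itgb3, the integrin beta 3 chain, had 20.1, 22.6, 52.9 and 43.2 in memory cells, 95.8 to 142 in naive, 209 to 548 in germinal center and 69.9 to 114 in plasma cells. Its difference from plasma cells, the nearest subset, was -1.52 ± 0.33 (adjusted p = 0.00239). Its other probe set had the same sign but did not pass all contrasts. Alcam, the CD6 ligand, had means of 64.9 in memory and 116 in germinal center cells, a call lost without germinal center array 1 (adjusted p = 0.0515). S1pr3, a receptor for sphingosine 1-phosphate, was shared with germinal center cells at 2484 and 1742 (0.51 ± 0.26, adjusted p = 0.185), and Gpr183, the oxysterol receptor, with naive cells at 1081 and 876 (0.30 ± 0.21, adjusted p = 0.534).

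Some transcription and chromatin regulators were higher than in each other subset. Zbtb32, a repressor reported in memory and B1 cells, had 29.8, 25.3, 33.3 and 34.9 in memory cells and 15.9 to 22.4 on the other arrays. The arrays did not overlap, but the difference from germinal center cells was only 0.53 ± 0.14 (adjusted p = 0.016). The call of Zbtb32 was lost against naive cells without naive array 3 (adjusted p = 0.0557). Against germinal center cells it was lost without germinal center array 1 (adjusted p = 0.0685). Ski, a corepressor of SMAD proteins, had a mean of 119 against 61.0 in naive cells, lost without naive array 2 (adjusted p = 0.0612). Kmt2a, a histone methyltransferase, had 222 to 394 in memory cells and 69.9 to 171 in germinal center cells, the nearest subset (1.48 ± 0.30, adjusted p = 0.00239), and lost its call with the actin ratio as a covariate (adjusted p = 0.171). Tcf4, an E protein, had means of 3267 in memory, 1873 in plasma and 1687 in naive cells. Its call against naive cells ended when naive array 2 or 3 or memory array 2, 3 or 4 was left out (adjusted p 0.0715 to 0.15). Of 31 stem cell self-renewal regulators 7 were higher and 3 lower than the mean and 0 passed against each. Over all genes 10.6% were higher and 11.9% lower than the mean, and 1.09% higher and 0.797% lower than each. At the last 2 shares a list of 31 genes is too short for its 0 to say anything about these regulators. Lmo2, one of these regulators, had 5590.1 in memory and 3813 in naive cells (0.55 ± 0.22, adjusted p = 0.195) against 58.0 in plasma cells.

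Among the genes lower in memory cells than in every other subset, replication and mitosis were prominent. Mcm5, a subunit of the replicative helicase, had 212, 264, 223 and 310.2 on the memory arrays. It had 651, 909 and 730.3 in naive, 2825, 4245 and 4038 in germinal center and 1700.1, 2646, 2259 and 2292 in plasma cells. Memory cells lay below the other resting subset, with a difference of -1.60 ± 0.20 (adjusted p = 0.000248), and the differences from germinal center and plasma cells were -3.87 ± 0.20 and -3.14 ± 0.18. Timeless, which protects replication forks, had 38.8, 46.3, 51.5 and 61.2 in memory cells. It had 156 to 187 in naive, 250.1 to 517 in germinal center and 399 to 426 in plasma cells, a difference from naive cells of -1.81 ± 0.21 (adjusted p = 0.000156). Ndc80, a kinetochore protein, had 19.8, 30.3, 34.3 and 32.4 in memory cells, 103 to 112 in naive, 269 to 717 in germinal center and 115 to 134 in plasma cells, and memory cells lay below naive and plasma cells (-1.91 ± 0.26 and -2.10 ± 0.24). Stmn1, which takes microtubules apart, had 81.3, 150.3, 82.3 and 159.7 in memory and 312 to 329 in naive cells, and 5415 to 6022 and 2738 to 3150.1 in germinal center and plasma cells. Its difference from naive cells was -1.50 ± 0.21 (adjusted p = 0.000796). The other probe sets of Mcm5, Timeless and Stmn1 had the same sign, and 0 passed all 3 contrasts.

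Of 40 measured S phase genes 36 were lower and 1 higher than the mean of the others (median -1.75, against -0.07 over all genes), and 9 were lower than each (over all genes 11.9%, 10.6% and 0.797%). Besides Mcm5 these were the licensing factor Cdt1 (mean 1737 in memory, 3724 in naive cells), the flap nuclease Fen1 (1049 and 2389), the ribonucleotide reductase subunit Rrm1 (292 and 552), and Mcm3, Rfc4, Prim1, Rpa2 and Gins1. Calls of the last 5 were lost in some fits with 1 array fewer: Mcm3 without naive array 2 or memory array 1 (adjusted p = 0.127 and 0.0705), Gins1 without naive array 1 or 3 (0.0546 and 0.0897), Rfc4 and Prim1 without naive array 2 or 3 or memory array 2, 3 or 4 (0.0539 to 0.136), and Rpa2 without naive array 2 or 3 or memory array 1 or 4 (0.0662 to 0.13). Averaging all probe sets ended the call of Cdt1 (adjusted p = 0.235). The number lower than each was 5 of 40 after quantile normalization or with arrays centred on bright genes. The median over the list was -0.41 against naive, -2.67 against germinal center and -1.98 against plasma cells. Mitosis differed from this: 51 of 53 genes were lower than the mean (median -2.74), but the median against naive cells was -0.01, and 3 genes (Ndc80, Cenpa and Spc25) were lower than each while 3 were higher than naive cells. The call of Cenpa ended when its probe sets were averaged (adjusted p = 0.37). Ccnb2, a mitotic cyclin, had 8.71 to 15.8 in memory and 7.94 to 10.7 in naive cells, at or near background, against 619.9 to 1486 and 905 to 1059.8. Spc25, a partner of Ndc80, had 13.1 to 33.9 in memory and 39.2 to 61.4 in naive cells, a call lost without naive array 3 (adjusted p = 0.0629). The other probe sets of Gins1 and Spc25 had the same sign but did not pass all contrasts. Rrm2, the gene furthest below the mean of the others (-5.13 ± 0.33), had 15.8 to 48.1 in memory and 25.04 to 97.7 in naive cells, which did not pass (-0.88 ± 0.43, adjusted p = 0.304), and the same held for Cks1b, Eaf2, Cenpk and Cep55 (adjusted p 0.153 to 0.67 against naive cells).

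The proliferation marker Mki67 went the other way against naive cells. It had 214, 282, 197 and 230.2 in memory cells, 9.21, 32.9 and 10.2 in naive, 5180.3 to 8589 in germinal center and 5467 to 6522 in plasma cells. Memory cells lay between the resting and the dividing subsets without overlap, with differences of 3.97 ± 0.34 from naive (adjusted p = 9.1e-06) and -4.90 ± 0.34 from germinal center cells (adjusted p = 1.12e-07).

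**Figure D3:**
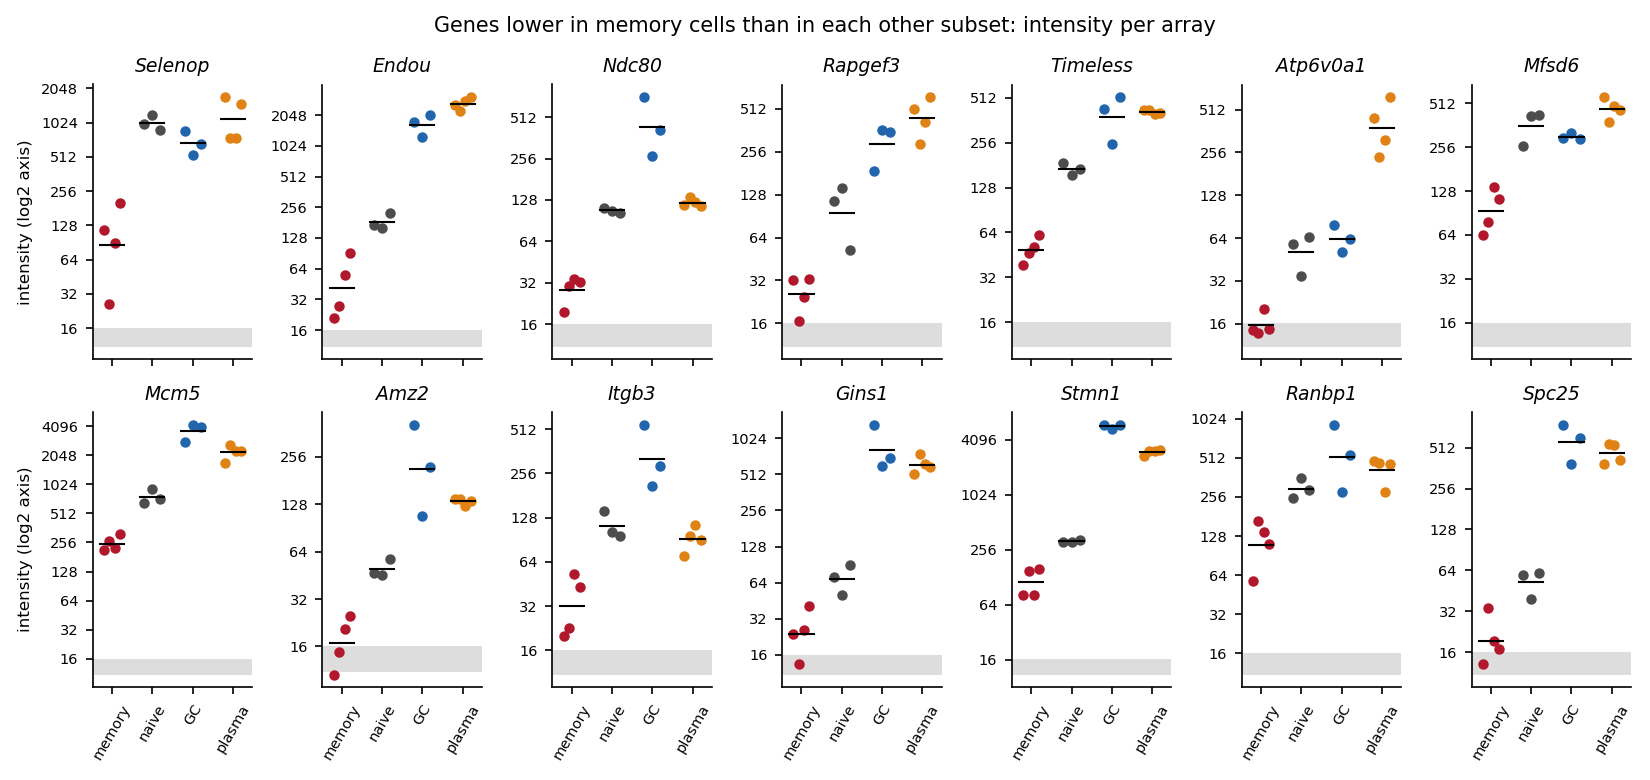
Intensity on each array (points, log2 axis) and subset mean (lines) of the 14 leading genes lower in memory cells (red, 4 arrays) than in naive (grey, 3), germinal center (blue, 3) and plasma cells (orange, 4), with the range of the array backgrounds as a grey band. The memory arrays lie below all 10 others in each panel, as the choice of these genes required, and come closest to them for Spc25 and Gins1.

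Other leading lower genes act outside the cell cycle. Selenop, a secreted selenium carrier, had 117, 26.4, 90.1 and 201 in memory cells. It had 999, 1199 and 877 in naive, 861, 531 and 664 in germinal center and 1721, 758, 745 and 1496 in plasma cells. The memory arrays spread widely, and the differences were -3.55 ± 0.52, -2.96 ± 0.52 and -3.67 ± 0.48 (adjusted p at most 0.000919). Endou, a uridine-specific endoribonuclease, had 20.9, 27.8, 55.1 and 90.5 in memory cells, 162 to 225 in naive, 1243 to 2031 in germinal center and 2246 to 3079 in plasma cells. Naive cells were nearest, with a difference of -2.15 ± 0.38 (adjusted p = 0.00405). Rapgef3, the exchange factor Epac1 that answers cyclic AMP, had 16.6 to 32.8 in memory and 52.3 to 142 in naive cells and 187 to 363 and 288 to 617 in germinal center and plasma cells. All 4 of its other probe sets had the same sign, and 1 passed all 3 contrasts. Atp6v0a1, a subunit of the proton pump that acidifies lysosomes, had 13.7 to 20.1 against 34.7 to 65.1 in naive, 51.3 to 78.5 in germinal center and 239 to 629 in plasma cells. Mfsd6, a transporter of the major facilitator family, had 64.2 to 136 against 259 to 422, 288 to 318 and 377 to 563 in the same order. Amz2, a metalloprotease, and Ranbp1, a regulator of the Ran GTPase, had 10.6 to 25.1 and 57.7 to 166 in memory against 45.3 to 57.9 and 252 to 355 in naive cells. Amz2 lost its call without naive array 2 or 3 or memory array 1 or 2 (adjusted p 0.0571 to 0.0864). Ranbp1 lost it in 10 of 14 such fits (adjusted p 0.0545 to 0.167): without any naive array, plasma array 1, 2 or 4, germinal center array 3 or memory array 1, 3 or 4. The other probe sets of Endou, Atp6v0a1, Mfsd6 and Amz2 had the same sign, and only that of Amz2 passed all 3 contrasts.

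Genes of secretion were low mainly against plasma cells, and those of respiration against germinal center and plasma cells. Of 55 measured genes of protein folding and secretion 41 were lower and 0 higher than the mean of the others, with medians of -2.71 against plasma, -0.01 against germinal center and -0.32 against naive cells. Fkbp2, Manf and Ostc were lower than each. Over all genes 11.9% were lower and 10.6% higher than the mean, and 0.797% lower than each. Fkbp2, a folding enzyme of the endoplasmic reticulum, had 30.2 to 47.3 in memory cells, 83.4 to 111 in naive, 91.5 to 144 in germinal center and 691 to 1245 in plasma cells. Manf, which is induced when that compartment is under load, had means of 100.4 and 207 in memory and naive cells, a call lost without naive array 1, 2 or 3 or memory array 1 (adjusted p 0.0524 to 0.0756), and Ostc, of the glycosylation complex, was lost in 10 of 14 such fits (adjusted p 0.0504 to 0.141): without any naive or memory array, plasma array 3 or 4 or germinal center array 3. Of 39 genes of oxidative phosphorylation 29 were lower and 0 higher than the mean (median -0.77, and -0.40 against naive cells). Atp5a1, a subunit of ATP synthase, was the 1 lower than each, with a difference of -0.56 ± 0.15 from naive cells (adjusted p = 0.0395). It was lost without any naive or plasma array or memory array 1 or 2 (adjusted p 0.0519 to 0.123), and the median difference between these subsets over bright genes was -0.20. Xrcc6, the Ku70 protein of DNA end joining, was the 1 of 29 genes of mutation and repair lower than each, with means of 172 in memory, 371 in naive, 370.0 in germinal center and 439 in plasma cells. Averaging all its probe sets ended this call (-0.51, adjusted p = 0.122). Of 28 measured quiescence genes 13 were higher and 4 lower than the mean of the others. Their medians were 1.27 against germinal center, 0.79 against plasma and -0.18 against naive cells. Cdkn2c, the p18 inhibitor of cyclin D kinases, went against most of them as the 1 lower than each (81.1 against 126 in naive cells). Its call was lost without naive array 2 or 3, any plasma array or memory array 1 or 2 (adjusted p 0.056 to 0.169).

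Many genes that were high against the mean were shared with naive cells. Of 29 measured mature B cell identity genes 25 were higher and 2 lower than the mean of the others (over all genes 10.6% and 11.9%). Against each 0 passed, with medians of 3.67 against plasma, 1.18 against germinal center and -0.06 against naive cells. Bcl2, which blocks cell death, had 594, 2410.3, 1418 and 1921 in memory and 819, 400.1 and 727 in naive cells, against 20.1 to 51.3 and 10.3 to 16.2 in germinal center and plasma cells. The step from naive cells was 1.18 ± 0.43 and did not pass (adjusted p = 0.146), memory array 1 lying among the naive arrays. Hhex, a homeobox factor of B cell development and memory, had 1426 to 3354 in memory and 3368 to 3959 in naive cells (-0.64 ± 0.38, adjusted p = 0.439), 27.5 to 116 in germinal center and 8.77 to 11.1 in plasma cells. Cnn3, an actin-binding calponin, had 3666 to 4101 and 6348 to 7643 in memory and naive cells and at most 40.3 on average in the others. Klf2 and Klf3, factors of lymphocyte quiescence, the complement receptor Cr2, the homing receptor Ccr7 and the marginal zone receptor Notch2 likewise did not pass against naive cells (differences of -0.15 ± 0.30, -0.21 ± 0.26, 0.24 ± 0.15, -0.79 ± 0.31 and 0.32 ± 0.24). Foxo1, a factor of resting B cells, was lower than in naive cells (-1.13 ± 0.16, adjusted p = 0.000724) and germinal center cells (-0.85 ± 0.16) and higher than in plasma cells (0.50 ± 0.15). Ptprc, whose B220 form was part of the gates, had 10373 to 13209 in memory cells and differed from naive cells by -0.03 ± 0.17, and Fcer2a, the CD23 on which naive cells were gated, had 433 to 1242 against 1559.8 to 1808.

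Other genes were shared with germinal center cells. Nt5e, the ectoenzyme CD73, had 156, 61.8, 98.6 and 88.0 in memory and 151, 51.2 and 133 in germinal center cells, against 6.04 to 7.80 in naive and 7.07 to 8.80 in plasma cells. Memory and germinal center arrays overlapped (-0.08 ± 0.34), and memory cells were at least 7.36-fold higher than naive and at least 6.96-fold higher than plasma cells. The 2 other probe sets of Nt5e differed from the mean of the other subsets by -0.13 and 0.10, against 2.46 for the brightest. The Nt5e pattern thus rests on the brightest one. Bmpr1a, a receptor of bone morphogenetic proteins, had 164 to 302 and 193 to 337 in memory and germinal center cells (-0.07 ± 0.26, adjusted p = 0.888) and 11.9 to 18.3 and 20.9 to 34.8 in naive and plasma cells. Traf1, an adaptor of TNF receptors, fell between, with means of 628 in memory, 272 in germinal center, 105 in naive and 18.8 in plasma cells, and its difference from germinal center cells did not pass (1.21 ± 0.42, adjusted p = 0.0528). The death receptor Fas had 69.7 to 124 in memory cells, above 23.1 to 28.5 in naive and 32.7 to 53.0 in plasma and below 182 to 425 in germinal center cells, and all 3 contrasts passed.

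**Figure D4:**
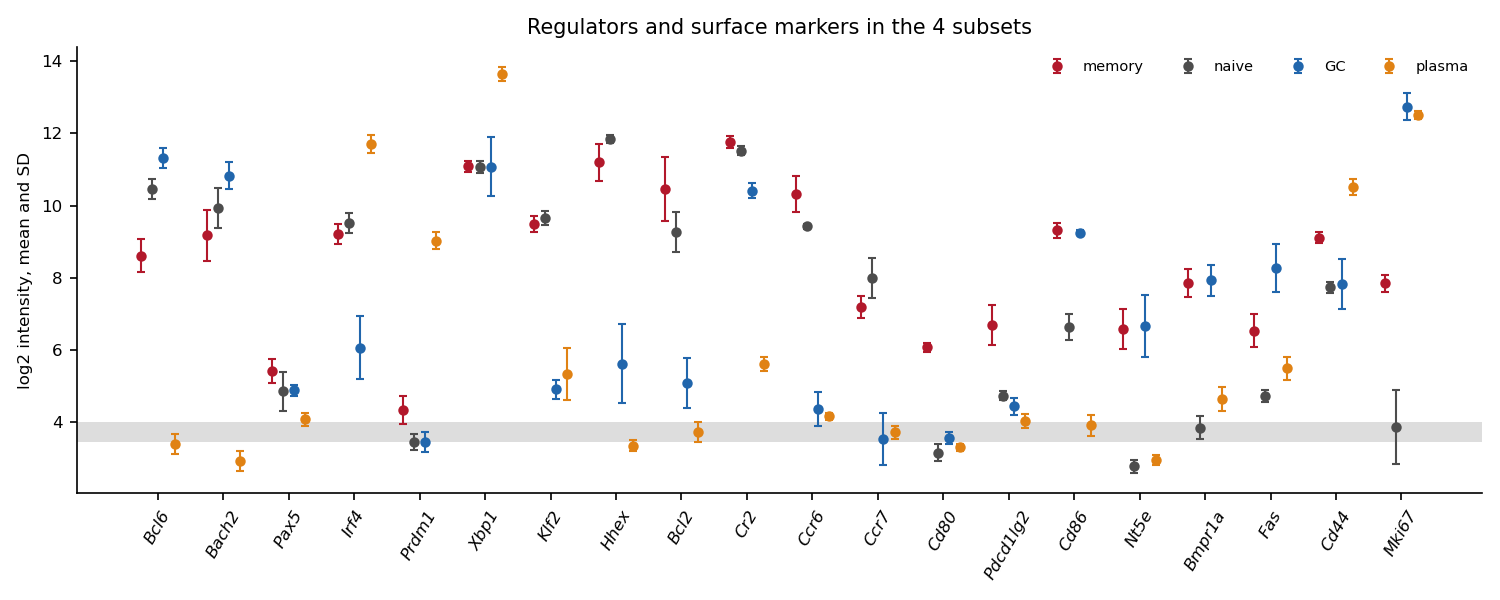
Log2 intensity, mean and SD over arrays, of 20 regulators and surface markers in memory (red, 4 arrays), naive (grey, 3), germinal center (blue, 3) and plasma cells (orange, 4), with the background range as a grey band. Cd80 and Pdcd1lg2 are highest in memory cells, Cd86, Nt5e and Bmpr1a lie with germinal center cells, and Klf2, Hhex and Cr2 with naive cells.

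The factors that direct germinal center and plasma cell fate lay between the extremes. Bcl6, the repressor of the germinal center program, had 274, 413, 356 and 583 in memory cells, 1174 to 1709 in naive, 2081 to 3061 in germinal center and 8.69 to 12.7 in plasma cells. Memory cells were -1.85 ± 0.24 from naive cells (adjusted p = 0.00035) and at least 28.5-fold above plasma cells, and the contrast with the mean, 0.23 ± 0.19, did not pass (adjusted p = 0.449). Without the plasma mean it was -2.27. Bach2, which restrains plasma cell differentiation, had 398, 357, 839 and 932 in memory and 649 to 1388 in naive cells and did not pass between them (adjusted p = 0.261). It was -1.65 ± 0.35 from germinal center cells and at least 42.0-fold above plasma cells. Prdm1, the Blimp-1 gene, had 14.6, 25.4, 17.9 and 25.1 in memory cells against 9.85 to 12.97 in naive, 9.02 to 13.2 in germinal center and 426 to 617 in plasma cells, a step of 0.89 ± 0.21 from naive cells (adjusted p = 0.0251). Irf4 had 479 to 705 in memory and 602 to 887 in naive cells (-0.31 ± 0.31), 45.3 to 133 in germinal center and 2838 to 4112 in plasma cells. Xbp1, which drives secretory capacity, differed from naive and germinal center cells by 0.02 ± 0.27 and 0.01 ± 0.27, and from plasma cells by -2.56 ± 0.25. Pax5, the B lineage factor, had 34.2 to 58.2 in memory cells and passed against plasma cells alone (1.34 ± 0.21). Cd44, an adhesion receptor raised on activated cells, was higher than in naive (1.36 ± 0.25) and germinal center (1.28 ± 0.25) and lower than in plasma cells (-1.41 ± 0.23).

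Plasma cell products were low but uneven over the memory arrays. Of 18 plasma cell identity genes 16 were lower and 0 higher than the mean (over all genes 11.9% and 10.6%), with a median of -3.50 against plasma and -0.06 against naive cells. Sdc1, the syndecan-1 on which plasma cells were gated, had 6.37, 7.91, 7.39 and 49.9 on memory arrays 1 to 4 and 103 to 190.0 in naive cells. Jchain, which joins secreted antibody, had 37.6, 28.5, 86.3 and 489 in memory cells, 8.67 to 14.9 in naive, 1419 to 2027 in germinal center and 10767 to 14629.5 in plasma cells. Ighm, the constant region of IgM, had 3388, 4417, 5088 and 11706 in memory cells, which were sorted as lacking IgM, and 5741 to 9437 in naive cells. Memory array 4 was the highest of the 4 for all 3 genes, and the part of this in other results was not tested. Without it, 200 genes were higher and 112 lower than each, of which 175 and 95 were among the 199 and 145. Switched classes were higher in memory than in naive and germinal center cells: Igha had 301, 126, 386 and 248.9 against 14.4 to 20.2 and 19.4 to 26.5, and Ighg3 221, 305, 351 and 206 against 12.2 to 17.05 and 71.4 to 129.8, while plasma cells had 16245 to 21118 and 8444 to 14106. Constant regions share sequence and each is given by 1 probe set, so the class is uncertain.

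**Figure D5:**
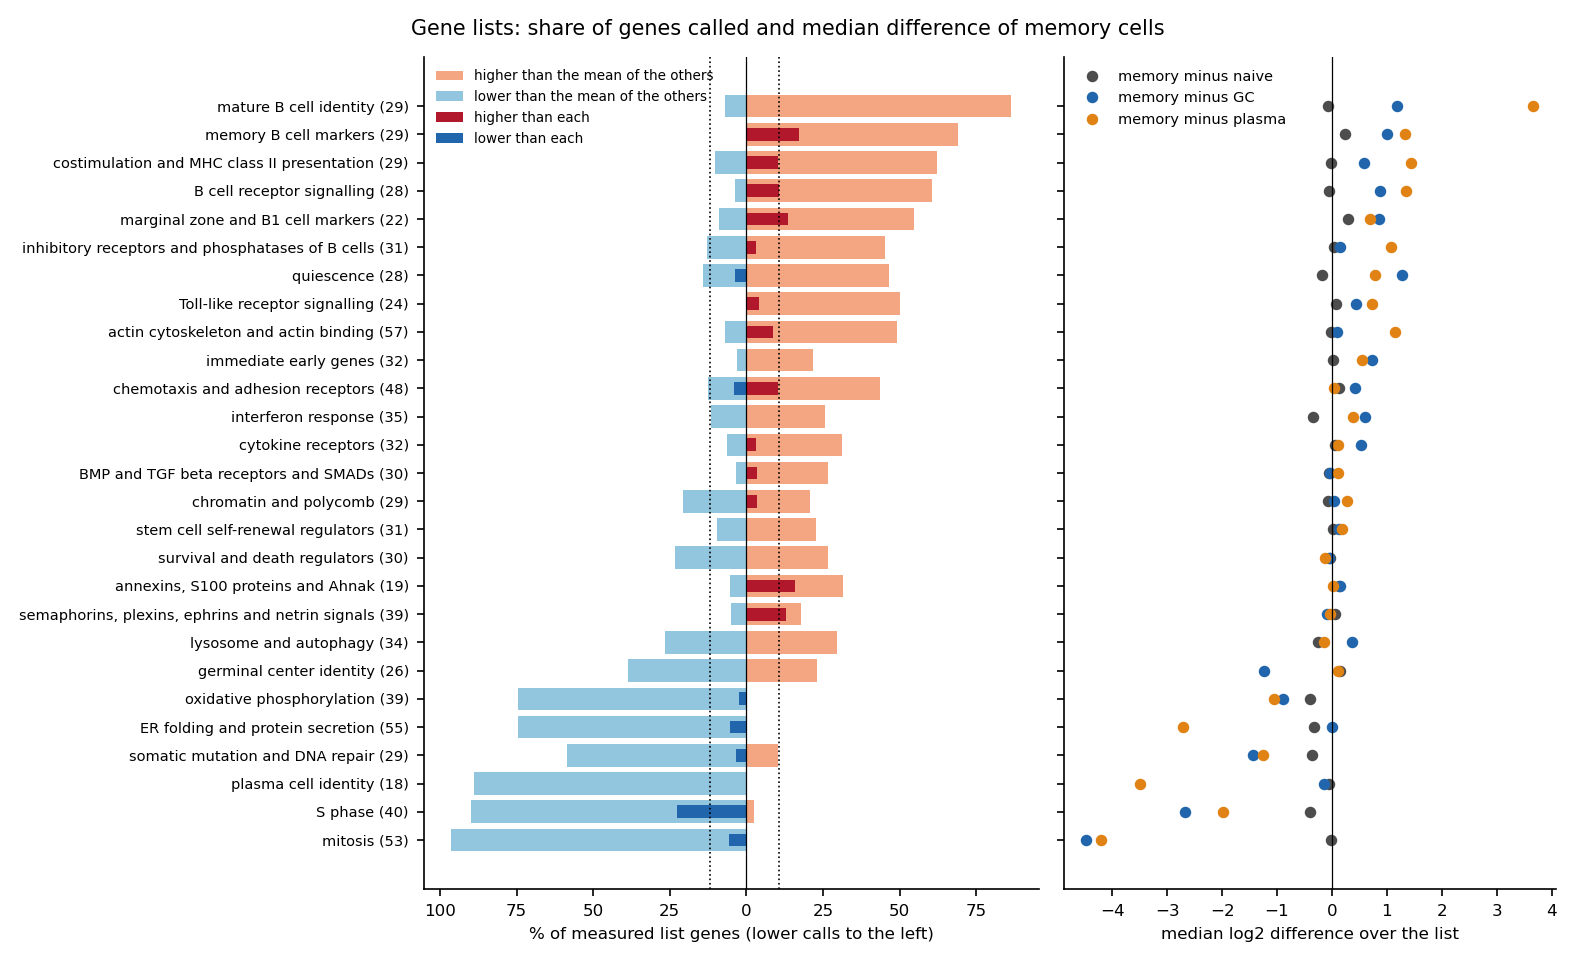
Left, share of the measured genes of each list (number in parentheses) higher (red, right) or lower (blue, left) in memory cells than the mean of the other subsets (pale) and than each (dark), with the shares over all genes against the mean as dotted lines. Right, median log2 difference of memory cells from naive (grey), germinal center (blue) and plasma cells (orange) over the list. Medians against naive cells lie near 0 for most lists, and the wide differences are those from germinal center and plasma cells.

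Memory B cell markers were mostly higher than the mean of the others. Of 29 measured memory B cell markers 20 were higher and 0 lower than the mean of the others (median 1.28), and 5 were higher than each (over all genes 10.6%, 11.9% and 1.09%): Cd80, Pdcd1lg2, Ccr6, Zbtb32 and Ski. The list was drawn up with earlier results of these data known and is no independent check. Of 22 markers of marginal zone and B1 cells 12 were higher and 2 lower, and Zbtb32, Asb2 and Myof, a membrane repair protein at 37.1 to 89.3 against 11.9 to 19.7, were higher than each. Of 14 T cell markers, 5 were at background on every memory array (Cd3d, Cd3g, Cd8b1, Gata3 and Foxp3) and 6 above it on all 4, with memory means of 331 for Cd2, 76.5 for Zap70, 22.3 for Cd3e, 19.0 for Lat, 17.4 for Cd4 and 15.3 for Cd8a. Likewise, 5 of 9 natural killer, 5 of 9 erythroid, 3 of 10 platelet and 9 of 19 stromal and endothelial markers were at background there. Above it on all 4 memory arrays were 1, 0, 6 and 1 of these markers in the same order. Summed T cell markers came to 498.7 to 601.9 in memory, 779.8 to 1077 in naive, 329.5 to 390.5 in germinal center and 282.8 to 314.3 in plasma cells. Memory cells thus lay below naive cells and above the other subsets. Cd2, the brightest of these markers in memory cells, had means of 331, 719, 77.6 and 31.5 in the same order. Summed dendritic cell markers came to 5240 to 5566 in memory cells against 1625 to 3628 in the others, carried by Tcf4 and Fscn1, which B cells express as well, while Xcr1, Ccl22 and Clec10a were at background. The part of such cells in the results was not tested.

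The higher genes spanned more of the genome than the lower ones. RefSeq gives a median gene length of 44.0 kb for 198 of the 199 higher genes, 19.0 kb for the 145 lower genes and 20.2 kb for 18142 of the 18193 measured genes. At least 100 kb was spanned by 27.8%, 8.28% and 12.4%. Among the bright genes the median was 24.6 kb. The control ratios of 3' to middle signal overlapped between memory and naive arrays. Against germinal center and plasma arrays, memory arrays had lower actin and higher GAPDH ratios without overlap, and the germinal center arrays reached furthest from them for actin. Their part in the length difference was not tested. Other probe sets of the same genes repeated the calls for a minority. Of the 199 higher genes 135 had other probe sets, and in 43 at least 1 of these passed all 3 contrasts. In 70 all others had the same sign and in 24 none did. Of the 145 lower genes 102 had other probe sets, and in 7 at least 1 passed, while in 73 all had the same sign and in 8 none. Among the higher genes memory array 4 was the lowest of the 4 for 93 and the highest for 11, and among the lower genes memory array 1 was the lowest for 73.

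Further settings ended calls of genes named above against each subset. With values floored at 16, Amz2, Gins1, Ranbp1, Ccr6, Cd274, Marcks, Plxnc1, L1cam, Tlr3, Fcgr2b, Cdkn2c, Mcm3, Rfc4, Rpa2, Manf, Ostc, Atp5a1 and Tcf4 no longer passed (adjusted p 0.052 to 0.127). With all probe sets averaged, Alcam (0.887), Rpa2 (0.203), Zbtb32 (0.18), Ostc (0.173), Fcgr2b (0.161) and Rfc4 (0.0511) did not, with adjusted p in parentheses. After quantile normalization Ranbp1, Plxnd1, Cdkn2c, Mcm3, Rfc4, Prim1, Rpa2, Ostc and Atp5a1 did not (0.0591 to 0.137), nor did Cd81, Cdkn2c, Mcm3, Rfc4, Prim1, Rpa2, Ostc and Atp5a1 with bright genes used for centring (0.0529 to 0.22). An intensity trend together with robust variance estimates ended the calls of Ccr6, Cd274, Cd81, Cdkn2c, Mcm3, Prim1, Ostc and Atp5a1 (0.0503 to 0.128), array weights that of Zbtb32 (0.085) and the background filter that of Atp5a1 (0.0601). The replicate block ended those of Zbtb32, Marcks, Tcf4, Ranbp1, Rfc4, Rpa2, Ostc and Atp5a1 (0.0507 to 0.106).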

How the data were processed

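Spleen B cell subsets were measured on 14 Affymetrix arrays. Per the submitters' processing notes, the authors made the deposited values with RMA (version and probe definition not given in the sources used here). The deposited table holds linear intensities, the smallest 4.64. Intensities were taken to log2 here with no pseudocount. Genes were named from the platform annotation, updated through Entrez numbers in RefSeq: of 45101 probe sets, 64 were controls, 34945 had 1 symbol, 932 several and 9160 none, and 0 symbols changed. The probe set with the highest mean stood for each of 18193 genes (9010 had more than 1).

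A linear model with 4 subset means (10 residual degrees of freedom) was fitted to all arrays with limma 3.58.1 in R 4.3.3, with Benjamini-Hochberg adjustment over all genes within each contrast. A gene was higher or lower than each subset when all 3 pairwise contrasts passed 0.05 with the same sign. Tested on simulated data of 18193 genes, with 100 genes changed per size, the contrast with the mean recovered 88% of changes of log2 1 and 100% of log2 2, and all 3 contrasts together 64% and 94%. In the simulation the 3 other subsets shared 1 mean per gene and only memory cells were shifted, unlike in these data. The shares recovered here may therefore differ. Precision is limited by the number of arrays.

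Genes were named by rule: the 14 with the largest smallest difference in each direction whose arrays do not overlap, the 6 highest and 6 lowest others against the mean, 36 fixed genes of which 33 were analysed here, and called members of the lists. Of 233 such genes 113 are named, together with marker genes at background. Immunoglobulin genes and clone names were left out of the ranked choices. The members, lists and genes were chosen with earlier results of these data known. Promoters and gene lengths came from RefSeq (GRCm38.p6). Alternatives were quantile normalization, centring on genes with a mean log2 of at least 6, a floor of 16, a background filter, averaged probe sets, an intensity trend together with robust variance estimates, array weights, a 2-fold threshold, other weights of the subsets, a replicate block, each array left out and, added after the data were seen, the actin ratio as a covariate.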

Additional observations from a re-analysis of the deposited data

Results flagged for a closer look

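Among the named genes, 226 sets of 4 memory or plasma arrays were examined for 1 array far from the other 3, and 13 (5.75%) held one. Chance gives about 1 in 20. The gap was judged against the range of the 4 arrays, so a small step counts where the other 3 lie close. In memory cells, array 2 was far above the others for Cd300lf (707), Plxnc1 (1674) and S1pr3 (4347). By this measure it was far below for Lmo2, though the step was small (4962, against 5774 to 5888 on the others). Memory array 4 was far above for Sdc1 (49.9, against 6.37 to 7.91 on the others), the 1 memory array on which this gene was above background. It was also flagged for Notch2, again by a small step (2605, against 2214 to 2273). Memory array 3 was far above for Pdlim1 (658), and memory array 1 far below for Cks1b (12.96). In plasma cells, array 4 was low for Ackr3 (9.20) and high for Lmna (38.9), array 1 low for Stmn1 (2738), array 2 low for Ighm (14594) and array 3 low for Ranbp1 (281).

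Probe sets without a gene symbol took no part in the comparisons. Of 9160 such probe sets, 140 (1.53%) were higher in memory cells than in each other subset and 1 (0.0109%) was lower. Of 34945 probe sets with 1 symbol, 334 (0.956%) were higher and 166 (0.475%) lower. The difference between these shares was not tested.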

How the results depend on the processing

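Against the mean of the others, the 1927 higher genes became 961 with a 2-fold threshold, 1136 without the plasma mean and 1284 with the actin ratio in the model (the actin covariate), and the 2165 lower genes became 832 with the 2-fold threshold. Leaving out 1 array gave 1570 to 2083 higher and 1728 to 2327 lower genes. Against each subset, the 199 higher genes became 123 with a floor of 16, 129 at 2-fold, 104 with the actin covariate and 132 to 217 without 1 array (132 without naive array 2). The 145 lower genes became 95 after quantile normalization, 75 with arrays centred on bright genes, 70 with the floor, 47 at 2-fold and 68 to 199 without 1 array (68 without naive array 2 or 3, 87 and 88 without memory array 1 or 2). Higher genes made up 57.8% of the calls against each as deposited, 70.9% after quantile normalization, 79.1% with centring on bright genes and 41.9% with the actin covariate. The cause of these shifts was not tested, except that a higher threshold or a contrast with fewer subsets changes the counts by construction. The replicate block gave 1862 and 2029 genes against the mean and 186 and 99 against each. Deviations of same-numbered arrays from their subset means correlated between -0.22 and 0.25, above 0.1 in 6 of 19 pairs, and in 13 of 54 pairs with other numbers. With so few arrays per mean, this cannot decide whether equal numbers pair the arrays. For the 113 named genes, 2784 alternative values against the mean kept direction and side of the threshold, 18 became weaker, 8 stronger and 15 reversed. Without the plasma mean the differences were -2.27 for Bcl6, -1.21 for Bach2, 0.89 for Prdm1 and 0.015 for Xbp1. With averaged probe sets they were -0.23 for Irf4, -0.10 for Cd44, 0.23 for Ighm and -0.18 for Igha. With the 10 other arrays weighted equally they were -0.15 for Irf4, -0.47 for Ighg3 and -0.30 for Igha, and the actin covariate gave -0.37 for Irf4 and -0.094 for Ighg3. Leaving out 1 array gave -0.0666 to 0.1899 for Ighg3, below 0 without germinal center array 2 (-0.0035) or memory array 3 (-0.0666). Genes near background have only bounds in the lower subset.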
